A study of Mus musculus with 6 samples.

Results

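Neutrophil primary granule genes were followed in LSK cells, the lineage-negative bone marrow fraction with surface Sca-1 and high c-Kit that holds haematopoietic stem cells and early multipotent progenitors. The set was named by symbol, not picked by a measured threshold, and all 6 of its members were among the 22180 genes tested: the azurophil granule proteins Mpo, Elane, Prtn3, Ctsg and Prss57, and Ms4a3, a gene of granulocyte-monocyte progenitors. Each had 1 probe set with a single gene symbol, and the set was proposed with results of these arrays already known. RNA was read on Affymetrix Mouse Gene 2.0 ST arrays, 3 of them from Ctcf conditional knockout mice and 3 from mice labelled WT. All mice were male and 8 weeks old, and the protocol gives 2 mg of tamoxifen a day for 3 days, with sorting 24 hours after the last dose. The knockout is tamoxifen-inducible. The growth protocol names CreER mice beside the knockout, and the labels do not say whether the WT animals had it, which promoter drives it or which part of Ctcf is deleted. Each array is labelled a biological replicate. Whether a replicate was 1 animal or a pool is not stated, and p-values measure the spread between these arrays.

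Primary, or azurophil, granules are the storage granules that a neutrophil precursor fills at the promyelocyte stage, before the secondary and tertiary granules form. They hold myeloperoxidase and a family of serine proteases that are stored active, bound to the proteoglycan serglycin, and released into phagosomes. Their transcripts appear early, in granulocyte-monocyte progenitors, and are switched off as neutrophils mature, so that in LSK cells they are usually read as a sign of myeloid priming. The transcription factors PU.1, C/EBP and MYB are known activators of these genes.

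Levels are the deposited log2 values after RMA, a method that corrects background, normalises arrays by quantiles and summarises probes. Array medians over all probe sets lay between 5.99 and 6.07, and arrays of unlike groups correlated over genes, which are not independent replicates, by 0.979 to 0.989 (Pearson). Ctcf, the deleted gene, had levels of 7.58, 7.78 and 7.86 on the knockout arrays, against 8.35, 8.59 and 8.73 on the WT arrays, so the mean was at 56.7% of WT (log2 difference -0.82, SE 0.13, limma adjusted p = 0.104). Kit, the sort marker, was at 10.15 ± 0.05 in the knockout and 10.38 ± 0.24 in WT (SD, n = 3 each), and all knockout arrays were narrowly below all WT arrays. Cd34, a progenitor surface protein, was at 11.95 ± 0.14 in the knockout and 11.97 ± 0.05 in WT (SD, n = 3 each). Ly6a, which encodes Sca-1, was not analysed here. The number of arrays limits the precision of every value.

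All 6 genes had higher levels in the knockout, and for all 6 the lowest knockout array lay above the highest WT array. Over all 22180 genes, 7.96% were apart in this direction. None of the 6 passed the threshold of an adjusted p of 0.05 by limma with Benjamini-Hochberg adjustment over all genes, which 0.0721% of genes passed in either direction. At an unadjusted p under 0.05, 6 of 6 were higher, against 5.03% of all genes. The median log2 difference, knockout minus WT, was 1.00, with a range of 0.68 to 1.40, while the median over all genes was 0.02. Ordered by the difference over all genes, the members stood between rank 6 (Ms4a3) and rank 92 (Prss57). In bulk RNA more cells that express a gene and more RNA per cell cannot be told apart.

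**Figure D1:**
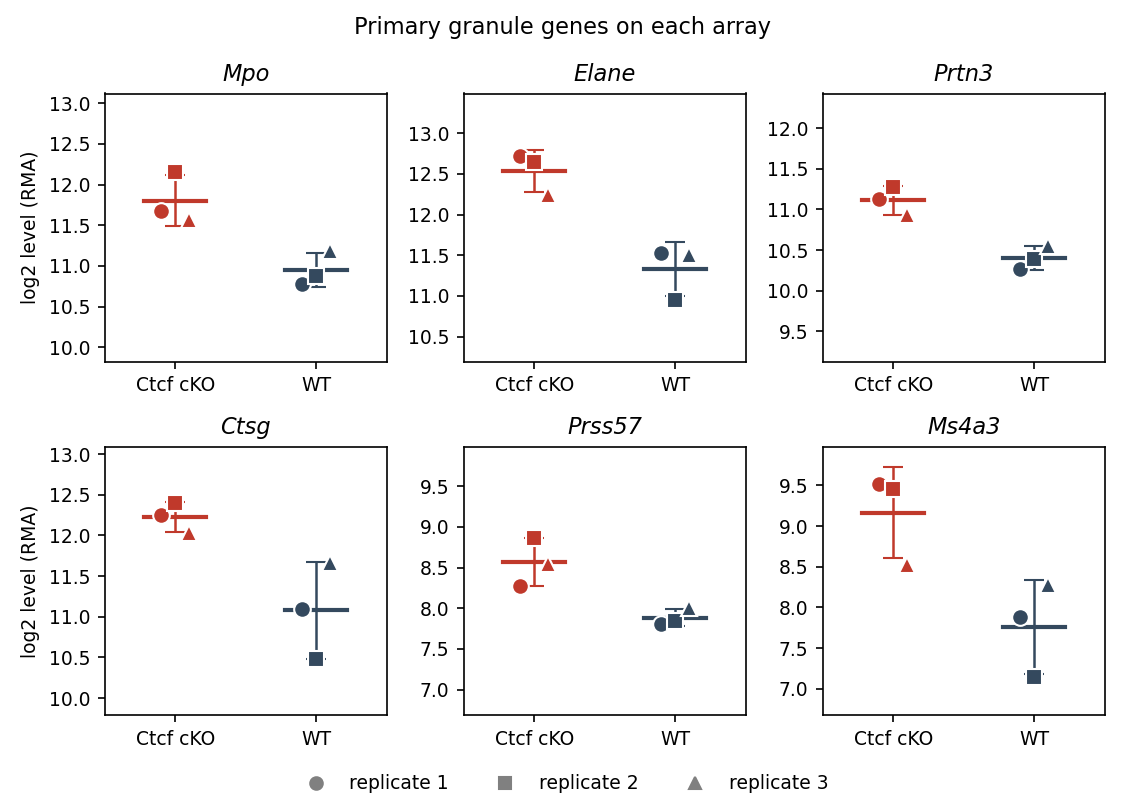
Log2 level (RMA) of the 6 primary granule genes on each array, Ctcf conditional knockout (cKO) left and WT right in every panel, with the mean (bar) and SD (whiskers) of the 3 arrays per group. The axes differ in position but span the same log2 range, and in every panel the lowest knockout array lies above the highest WT array.

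Mpo (probe set 17254877) encodes myeloperoxidase, the haem enzyme that makes hypochlorous acid in the phagosome. Its log2 level was 11.68, 12.16 and 11.57 on knockout arrays 1 to 3, against 10.78, 10.88 and 11.18 on WT arrays 1 to 3. The groups did not overlap, with WT array 3 closest to the knockout. The means were 11.80 ± 0.32 in the knockout and 10.95 ± 0.21 in WT (SD, n = 3 each), a 1.81-fold difference (log2 0.85, SE 0.18, 95% interval 0.45 to 1.26, limma adjusted p = 0.220).

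The serine proteases followed the same direction. Elane (probe set 17235011), neutrophil elastase, whose human gene is mutated in congenital neutropenia, had levels of 12.73, 12.64 and 12.24 in the knockout, against 11.53, 10.95 and 11.51 in WT. Knockout array 3 was the lowest of its group and still stood above all WT arrays, and WT array 2 was the lowest of all 6. The difference was 2.31-fold (log2 1.21, SE 0.19, 95% interval 0.77 to 1.64), and its limma adjusted p of 0.104 was the smallest of the 6.

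Prtn3 (probe set 17235002), proteinase 3, a close relative of elastase and the autoantigen of a human vasculitis, was at 11.13, 11.28 and 10.93 in the knockout, against 10.27, 10.39 and 10.56 in WT. Both groups were tight, with SDs of 0.18 in the knockout and 0.14 in WT. The difference was 1.64-fold (log2 0.71, SE 0.13, 95% interval 0.41 to 1.01, limma adjusted p = 0.158). Ctsg (probe set 17306975), cathepsin G, a chymotrypsin-like protease, was at 12.25, 12.40 and 12.03 in the knockout, against 11.10, 10.48 and 11.66 in WT. Here the knockout arrays were the tighter, with an SD of 0.19 against 0.59 in WT, and WT array 3 came close to knockout array 3. The Ctsg difference was 2.22-fold (log2 1.15, SE 0.26, 95% interval 0.55 to 1.75, limma adjusted p = 0.278).

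Prss57 (probe set 17242687) encodes a low-abundance neutrophil serine protease that cleaves after arginine. It was at 8.28, 8.87 and 8.55 in the knockout, against 7.80, 7.85 and 8.00 in WT, the smallest difference of the set at 1.60-fold (log2 0.68, SE 0.16, 95% interval 0.33 to 1.04, limma adjusted p = 0.280). The knockout arrays were spread more widely than the WT arrays, and knockout array 1 was the lowest of its group. For the other 5 genes knockout array 3 was the lowest of the knockout arrays.

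Ms4a3 (probe set 17362998) is not a granule protein but a membrane protein with several membrane-spanning segments, expressed from the granulocyte-monocyte progenitor on and used in mice to trace that lineage. It had levels of 9.51, 9.46 and 8.52 in the knockout, against 7.88, 7.14 and 8.27 in WT. It had the largest difference of the 6 and also the widest spread: knockout array 3 and WT array 3 were 0.25 apart, while knockout array 1 and WT array 2 stood at the far ends. The difference was 2.64-fold (log2 1.40, SE 0.33, 95% interval 0.65 to 2.15, limma adjusted p = 0.296).

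**Figure D2:**
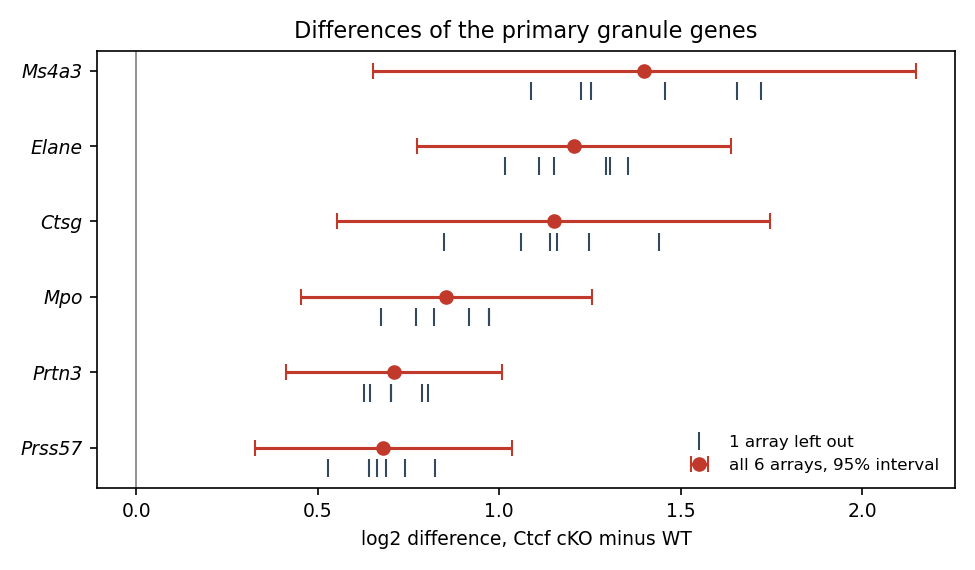
Log2 difference, Ctcf cKO minus WT, of each primary granule gene: points with the 95% interval of the limma fit on all 6 arrays, and ticks for the fits with 1 array left out. All 6 intervals lie above 0, from 0.33 at the lower end for Prss57 to 2.15 at the upper end for Ms4a3.

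The members were compared with each other by taking, on each array, the difference between the log2 levels of 2 members and asking whether that difference changed between knockout and WT. Of the 15 pairs none fell below an exact two-sided permutation p of 0.1, the smallest that 3 arrays against 3 can give, and none fell below an adjusted p of 0.45 over the 15 pairs. Elane exceeded its neighbour Prtn3 by 0.49 in the size of the difference (exact permutation p = 0.1), and Prss57 minus Ms4a3 was -0.72 (exact permutation p = 0.3). With so few arrays this does not show that the 6 genes moved by the same amount.

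The order of the arrays within a group was shared between members only in part. Knockout array 3 was the lowest knockout array for 5 of the 6 genes, and WT array 2 the lowest WT array for 3 of the 6. Averaged over the 6 genes after each was centred on its own mean, the levels were 0.53, 0.73 and 0.24 on knockout arrays 1 to 3, against -0.51, -0.79 and -0.20 on WT arrays 1 to 3. Knockout array 3 and WT array 3 were therefore the closest pair. WT array 3 was the highest WT array for 5 of the 6 genes, the exception being Elane, for which WT array 1 was higher by a small margin.

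The promoter windows of 5 of the 6 genes, matched by symbol, are given because these genes were higher together and because PU.1 and C/EBP are known to act at such promoters. Each run covers 250 bases before to 50 after the transcription start, 5′ to 3′ along the gene, from RefSeq on GRCm38.p6, and capitals mark each GAGGAA, the core of the PU.1 motif, in the printed strand.
Mpo, chr11:87793534-87793833, plus strand: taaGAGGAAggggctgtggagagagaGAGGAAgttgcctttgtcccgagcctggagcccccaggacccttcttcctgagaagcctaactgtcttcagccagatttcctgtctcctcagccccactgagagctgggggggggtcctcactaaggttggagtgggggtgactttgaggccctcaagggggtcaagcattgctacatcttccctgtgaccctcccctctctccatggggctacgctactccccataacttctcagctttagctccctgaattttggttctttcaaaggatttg
Elane, chr10:79886062-79886361, plus strand: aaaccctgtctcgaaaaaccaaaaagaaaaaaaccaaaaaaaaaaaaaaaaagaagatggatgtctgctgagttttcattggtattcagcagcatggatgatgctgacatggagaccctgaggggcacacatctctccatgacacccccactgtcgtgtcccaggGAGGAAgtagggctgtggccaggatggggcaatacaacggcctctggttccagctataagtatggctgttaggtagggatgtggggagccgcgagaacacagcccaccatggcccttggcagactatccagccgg
Prtn3, chr10:79879417-79879716, plus strand: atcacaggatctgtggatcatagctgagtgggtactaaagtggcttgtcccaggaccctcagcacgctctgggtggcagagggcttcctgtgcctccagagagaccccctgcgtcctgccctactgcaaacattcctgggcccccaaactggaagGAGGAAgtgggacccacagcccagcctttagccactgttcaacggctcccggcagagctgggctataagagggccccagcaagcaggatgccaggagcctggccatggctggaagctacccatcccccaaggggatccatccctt
Ctsg, chr14:56102525-56102824, minus strand: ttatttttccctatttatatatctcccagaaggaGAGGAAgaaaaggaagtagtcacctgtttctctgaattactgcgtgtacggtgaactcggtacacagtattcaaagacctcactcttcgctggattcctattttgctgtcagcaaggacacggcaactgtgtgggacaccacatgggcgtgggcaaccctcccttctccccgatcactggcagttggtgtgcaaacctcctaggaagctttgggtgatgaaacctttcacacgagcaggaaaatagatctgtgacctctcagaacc
Ms4a3, chr19:11640802-11641101, minus strand: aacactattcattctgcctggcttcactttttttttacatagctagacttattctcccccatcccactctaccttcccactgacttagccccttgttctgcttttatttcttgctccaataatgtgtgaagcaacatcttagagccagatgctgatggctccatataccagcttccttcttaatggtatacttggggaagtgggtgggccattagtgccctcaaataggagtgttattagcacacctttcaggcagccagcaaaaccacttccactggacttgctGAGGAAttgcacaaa

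GAGGAA, searched on both strands, was present in 5 of the 5 windows, against 28.3% of the 27025 windows of this length, 1 per gene symbol. Mpo had 2 copies, and the other 4 genes had 1 each. Their positions were not shared. First bases were at -247 and -224 from the start in Mpo, -216 in Ctsg, -95 in Prtn3 and -85 in Elane. In Ms4a3 the match lay after the start, at 35. In Elane, Prtn3 and in 1 of the Mpo copies the letters run on as GAGGAAGT, which is seen in the printed sequences. The MYB core AACNG was found in 4 of the 5 windows (80.4% of all windows), and the C/EBP core TTNNGNAA in 1 of 5, Ms4a3 with 2 copies (40.7% of all windows). The RUNX core TGTGGT and the TATA box letters TATAAA were each in 1 of 5, both in Ctsg (16.9% and 14.2% of all windows). Both of these Ctsg matches were on the strand opposite to the printed one, with first bases at -79 and -237 from the start. The GFI1 core AATCAC and the letters AGGGGGC from the CTCF motif were in 0 of 5, against 10.5% of all windows for each. No GAGGAA overlapped another of these matches. A match describes letters in a window and is not a measured binding site.

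The levels of the factors known to act on these genes were measured on the same arrays. Of 10 such transcription factor genes, all measured, 0 were called by limma in either direction (1 of 10 at an unadjusted p under 0.05, Cebpe), 3 differences were positive and 7 negative, and their median was -0.02 beside 0.02 for all genes. Cebpe, the C/EBP member of late granulopoiesis, was at 7.00, 7.57 and 6.96 in the knockout, against 6.91, 6.45 and 6.63 in WT, a log2 difference of 0.52 (SE 0.19, limma adjusted p = 0.551). The Cebpe groups did not overlap. The genes that encode the early activators differed little: Spi1, for PU.1, by -0.01 (SE 0.15), Cebpa by 0.10 (SE 0.14) and Myb by -0.09 (SE 0.11). Gfi1, a repressor needed for neutrophil formation, differed by -0.01 (SE 0.10), and Irf8, which favours the monocyte over the neutrophil fate, by -0.27 (SE 0.19). Limma adjusted p-values of these 5 were between 0.771 and 0.994.

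Genes that mature, package or inhibit the granule proteases showed smaller differences. Of 20 listed genes 17 were measured, 0 were called by limma (1 at an unadjusted p under 0.05, Cd63, higher), and 14 differences were positive and 3 negative (median 0.14). That median was 0.07 without knockout array 2, 0.09 without WT array 1 and 0.08 with centring on brighter genes. Ctsc, the dipeptidyl peptidase that activates the serine proteases, was at 9.26 ± 0.19 in the knockout and 9.02 ± 0.38 in WT (SD, n = 3 each), and the groups overlapped. Srgn, the serglycin core that holds the proteases in the granule, was at 12.04 ± 0.07 in the knockout and 12.04 ± 0.07 in WT (SD, n = 3 each). Cd63, a tetraspanin of the azurophil granule membrane, differed by 0.48 (SE 0.21, limma adjusted p = 0.610), Calr, the calreticulin chaperone on which myeloperoxidase folds, by 0.31 (SE 0.19) and Serpinb1a, an inhibitor of the proteases, by -0.18 (SE 0.17).

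The lysosomal hydrolases that share the azurophil granule were split. Of 18 listed genes 13 were measured, 7 of them higher and 6 lower in the knockout (median 0.03) and 0 called by limma (2 at an unadjusted p under 0.05, Arsb and Gusb, both higher). Arsb, arylsulfatase B, differed by 0.34 (SE 0.14) and Gusb, beta-glucuronidase, by 0.29 (SE 0.12), while Gaa, acid alpha-glucosidase, differed by -0.18 (SE 0.12).

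Among 22 other genes of granulocyte-monocyte progenitors, all measured, 12 were higher and 10 lower in the knockout by any amount (median 0.01). By limma 0 were called, and 6 had an unadjusted p under 0.05, 5 higher and 1 lower. Trem3, a myeloid receptor, was at 8.75, 8.95 and 8.35 in the knockout, against 8.09, 6.99 and 8.28 in WT, a difference of 0.89 (SE 0.31, limma adjusted p = 0.527). Alas1, the housekeeping enzyme that starts haem synthesis, was at 8.96, 9.33 and 8.52 in the knockout, against 8.02, 8.10 and 8.42 in WT, a difference of 0.75 (SE 0.20, limma adjusted p = 0.383). These 2 genes had groups that did not overlap, as did Nkg7, a granule membrane protein of cytotoxic and myeloid cells, at 0.68 (SE 0.20). Mpeg1, a pore-forming protein of macrophages, differed the other way by -0.81 (SE 0.22, limma adjusted p = 0.394). Its knockout arrays were all below its WT arrays, as were those of Kit by a narrow margin (-0.22, SE 0.13). The cytokine receptor genes Csf3r and Csf1r differed by -0.15 and 0.02.

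Genes of the granules that form later were mostly lower in level in the knockout. Of 15 late granule and S100 genes, all measured, 12 differences were negative and 3 positive, around a median of -0.52. By limma 0 were called on all 6 arrays, and 6 had an unadjusted p under 0.05, all lower. Of all 22180 genes, 1799 were under this unadjusted p, 1115 of them higher in the knockout and the rest lower. Ngp, a secondary granule protein, was at 8.37, 8.01 and 7.46 in the knockout, against 11.49, 9.08 and 10.59 in WT (log2 difference -2.44, SE 0.52, limma adjusted p = 0.241). All knockout arrays were below all WT arrays for Ngp. Camp, the cathelicidin precursor, was at 5.998, 5.939 and 5.620 in the knockout, against 8.227, 5.967 and 7.729 in WT. WT array 2 was at the level of the knockout for Camp, and without it Camp passed the threshold (log2 difference -2.13, limma adjusted p = 0.0381). The 3 positive differences were those of Mmp8 (0.47, SE 0.25), Ly6g (0.25, SE 0.33) and Cxcr2 (0.12, SE 0.13), each with overlapping groups. Without knockout array 3 the Mmp8 difference was 0.77 (limma adjusted p = 0.371).

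**Figure D3:**
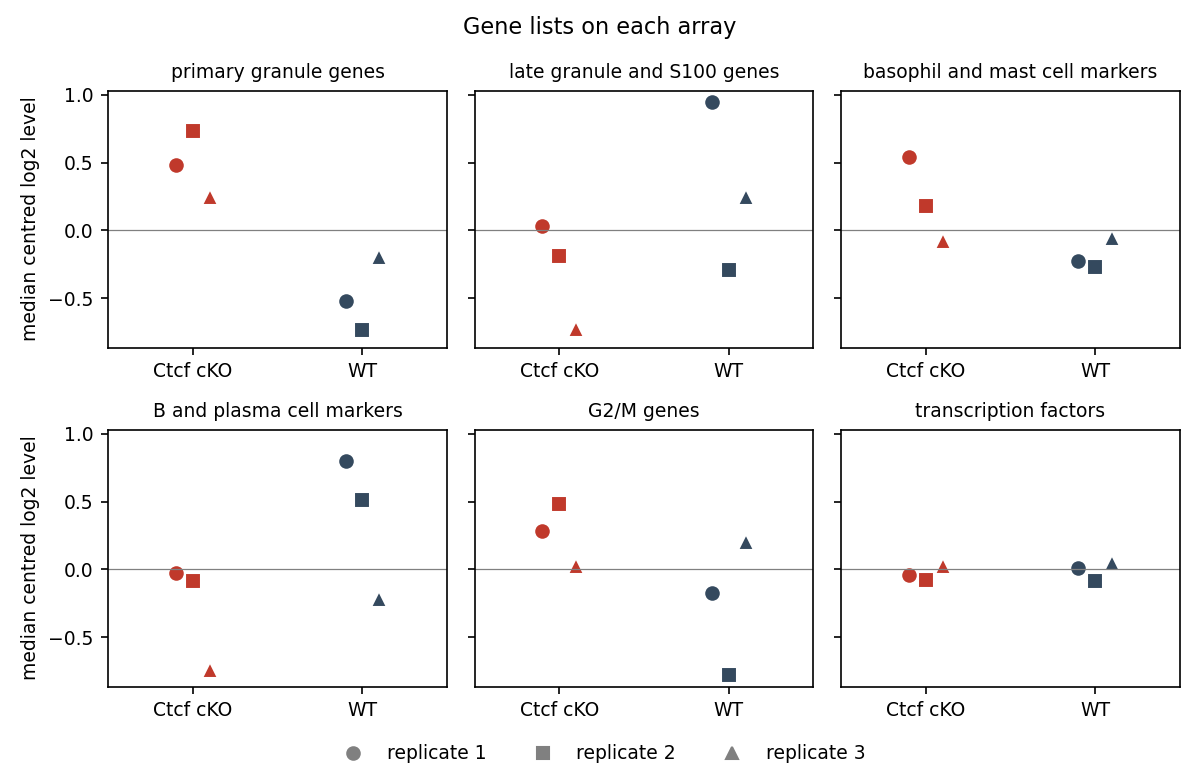
Median over each gene list of the log2 level centred on each gene's own mean, for every array, Ctcf cKO left and WT right, with replicates shown by marker. Among the lists plotted, the knockout and WT arrays are apart for the 6 primary granule genes. They overlap for the late granule, basophil, B and plasma cell and G2/M lists, and differ little for the transcription factors. The arrays are also apart for the eosinophil list (knockout lower) and the megakaryocyte list (knockout higher), which are not plotted.

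Other lists had median differences away from 0 on the same arrays, and their part in the differences of the primary granule genes was not tested. For G2/M, 17 of 18 genes were measured and all 17 were higher in level in the knockout (median difference 0.54). Of the 17, 0 were called by limma, 9 had an unadjusted p under 0.05 and 2 had groups that did not overlap. The mean log2 level of the list was 9.08 to 9.52 on the knockout arrays and 8.25 to 9.26 on the WT arrays. The array medians of the G2/M list were 0.29, 0.48 and 0.03 in the knockout, against -0.17, -0.78 and 0.20 in WT. Within each group the arrays had the same order as in the average over the 6 primary granule genes, an order that not all 6 had singly. Unlike that average, the G2/M list had WT array 3 above knockout array 3. Without WT array 2, the lowest in both summaries, the median difference of the 6 primary granule genes was 0.84. The matching G2/M median was not summarised, so the 2 lists cannot be compared on this point.

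Of 10 basophil and mast cell markers 9 were measured, 6 with a positive and 3 with a negative difference (median 0.38), at a mean log2 level of 6.07 to 6.48 in the knockout and 5.68 to 5.99 in WT. Hdc, the histamine-forming enzyme, was the 1 called by limma (log2 2.32, SE 0.26, adjusted p = 0.0309). Mcpt8 differed by 1.11 (SE 0.16, limma adjusted p = 0.0708), and these 2 were the ones at an unadjusted p under 0.05. Prss34, another marker of the list, differed by -0.21 (SE 0.14). Cpa3, the brightest marker of the list, was at a mean of 9.87 in the knockout and 9.42 in WT. It differed by 0.45 (SE 0.28), with overlapping groups. The mast cell protease genes Cma1 and Tpsab1, with group means between 4.29 and 4.74, differed by 0.38 (SE 0.23) and -0.05 (SE 0.10). All 11 measured of 12 B and plasma cell markers had a negative difference (median -0.75), at a mean log2 level of 7.57 to 8.26 in the knockout and 8.19 to 9.39 in WT. Of these 11, 0 were called by limma, 5 had an unadjusted p under 0.05 and 1 had groups that did not overlap. The share of all genes apart in this lower direction was not counted. RMA values carry no detection call, so no marker can be read as absent.

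The genes around each locus were examined because CTCF binds at boundaries between chromatin loops, and Prss57, Prtn3 and Elane lie close together on chromosome 10. Among protein-coding genes measured here, Prtn3 and Elane are adjacent in RefSeq gene order, and Prss57 is separated from them by Palm, Misp, Ptbp1 and Plppr3. Those 4 genes differed by between -0.13 (Plppr3) and 0.20 (Palm), each at an unadjusted limma p of 0.0985 or more. On the far side of Elane, Med16 differed by 0.11 (SE 0.12), and on the far side of Prss57, Fstl3 differed by 0.01 (SE 0.12). Over 14 neighbours of this cluster, 5 on each side and the 4 between, 10 differences were positive and 4 negative, around a median of 0.09 (range -0.16 to 0.36).

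Ctsg lies on chromosome 14 between genes of mast cell proteases and granzymes. Its immediate neighbour Mcpt8, a protease of basophils, was at 8.18, 8.48 and 7.92 in the knockout, against 7.02, 6.96 and 7.26 in WT, a difference of 1.11 (SE 0.16, limma adjusted p = 0.0708). The groups did not overlap. Next to Mcpt8, Mcpt4 differed by 0.71 (SE 0.29, limma adjusted p = 0.590) with overlapping groups, and on the other side of Ctsg, Gzmd differed by -0.04 (SE 0.18). Both were dim, Mcpt4 at means of 4.05 in the knockout and 3.34 in WT and Gzmd at 3.10 and 3.14. Apart from Mcpt8, all neighbours of Ctsg had group means below the median gene's 6.29, so their differences say little about expression at the locus. The 10 neighbours of Ctsg had a median of 0.10, 5 positive and 5 negative. These genes are related in sequence, and a probe set may take signal from a near-identical copy.

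Mpo lies on chromosome 11 beside the genes of 2 related peroxidases. Lpo, lactoperoxidase, was at 0.02 (SE 0.11) in log2 difference. Epx, eosinophil peroxidase, was at 5.92, 5.93 and 5.84 in the knockout, against 6.26, 6.70 and 6.98 in WT, so the difference ran the other way (-0.75, SE 0.17, limma adjusted p = 0.284). The Epx groups did not overlap. Tspoap1, the neighbour on the opposite side of Mpo, differed by 0.33 (SE 0.12). Ms4a3 lies in the Ms4a cluster of chromosome 19, where Ms4a2, the beta chain of the IgE receptor, differed by 0.14 (SE 0.16), Ms4a6d by 0.55 (SE 0.31) and Ms4a6b by -0.49 (SE 0.23). Mrpl16, a mitochondrial ribosomal protein gene on the same stretch, differed by 0.66 (SE 0.18, limma adjusted p = 0.391), and its groups did not overlap. Over all 44 neighbours of the 4 loci the median was 0.06, and 26 were positive and 18 negative. Of the 44, 7 were apart and higher (7.96% of all genes were) and 3 apart and lower. The share of all genes apart and lower was not counted, so the 3 cannot be set against it. By limma 0 were called (6 at an unadjusted p under 0.05 and higher, 1 lower). The difference between members and neighbours was not tested.

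**Figure D4:**
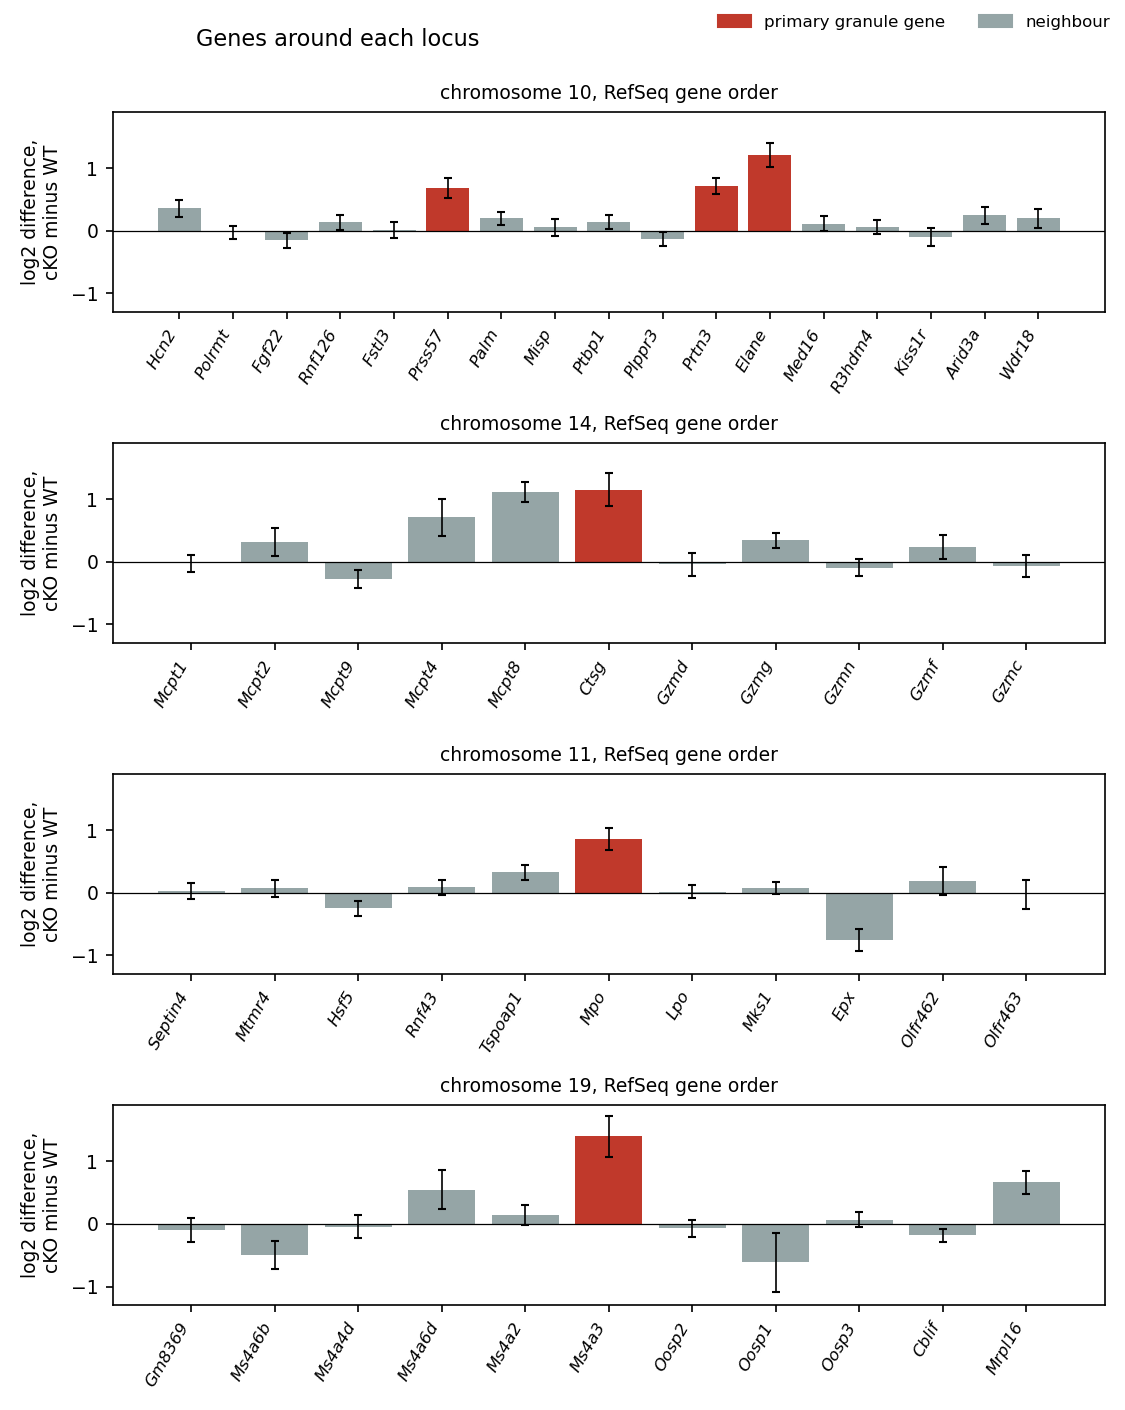
Log2 difference, Ctcf cKO minus WT, of the primary granule genes (red) and of measured protein-coding neighbours (grey) in RefSeq gene order, 5 on each side of each locus, with whiskers for the SE. The members reach 0.68 to 1.40, and among neighbours Mcpt8 stands at 1.11 and Epx at -0.75.

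The 10 genes most like the set, by Pearson's r over the 6 arrays between their level and the mean centred level of the 6 members, among genes brighter than the median gene and outside the set, had r between 0.985 and 0.996. They were Mtres1, Pomp, Rnf125, Atg5, Cers4, Mtus1, Kdelr2, Psmd13, Abcf2 and Mcpt8. This measure includes the difference between the groups and is a description of 6 arrays. Pomp, which assembles the proteasome, was at 8.67, 8.76 and 8.60 in the knockout, against 8.35, 8.32 and 8.47 in WT. Differences of the 10 lay between 0.20 (Cers4) and 1.11 (Mcpt8), and Mcpt8 is thus both a neighbour of Ctsg and a gene whose array pattern was close to that of the set.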

How the data were processed

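Total RNA of sorted LSK cells was labelled with biotin and hybridised, 1 array per sample, per the labels' protocols. The deposited values are log2 probe set levels; they were made with RMA and oligo, versions unnamed, per the submitters' processing notes. The genome build is not given in the sources used here. RMA compresses differences of dim probe sets.

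Of 41345 probe sets, 23521 had 1 gene symbol in GEO's platform annotation, 1814 several and 16010 none here. Each of 22180 genes was read from its brightest probe set by the mean of all 6 arrays. RefSeq (GRCm38.p6) held Entrez identifiers of 21994, and 0 symbols changed. No filter was applied. limma 3.58.1 (R 4.3.3; lmFit, eBayes at default settings, group as the only term) was fitted on all genes, with Benjamini-Hochberg adjustment and calls at an adjusted p under 0.05. It was tested on simulated data. Differences are knockout minus WT. Exact permutation tests used scipy 1.17.1.

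The members and all gene lists were chosen with earlier results of these data known. Genes named were the members, Ctcf, up to 3 per direction of each list by smallest p, the 5 nearest measured protein-coding genes on each side of a locus, and the 10 genes most alike over the arrays. Further list members are given as examples, chosen after their values were seen. The motifs were also chosen at that stage. The alternatives tried were trend and robust moderation, array weights, brighter genes only, a further quantile normalisation, centring, mean of probe sets, all probe sets, a replicate block, each array left out, and a threshold of 0.1.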

Additional observations from a re-analysis of the deposited data

How the results depend on the processing

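With 3 arrays a group, only large differences can pass over 22180 genes. Under all 15 alternatives 0 of the 6 primary granule genes were called, and under every one that gave a difference all 6 kept a positive sign. Where an array was left out this had to follow, since the groups do not overlap. Their median difference lay between 0.84 (without WT replicate 2) and 1.13 (without WT replicate 3) with 1 array left out. Under the other settings it lay between 0.92 and 1.04. Only array weights, further quantile normalization and centring could move it there. The moderation, brighter genes, mean of probe sets, all probe sets and block settings left each member's difference unchanged by construction. In the fit as reported 0 of the 6 were under an adjusted p of 0.1 either. Elane was under 0.1 among brighter genes (0.0574), with trend and robust moderation (0.0652) and with further quantile normalization (0.0920), and Prtn3 among brighter genes (0.0944). The labels do not say whether the replicate numbers shared by the groups pair the samples. Deviations from the group means correlated by 0.29, 0.02 and -0.14 for numbers 1, 2 and 3. For unlike numbers they correlated by between -0.25 and 0.25. These values cannot settle whether samples of the same number were handled together. A block for the replicate number cannot change a difference in this balanced design, so its median of 1.00 is no check. With the block 0 members were called, and the calls over all genes fell to 7 from 16. Those over all genes were 25 with trend and robust moderation, 23 among brighter genes, 3 over all probe sets, and between 0 (without knockout replicate 1) and 8 with 1 array left out. Centring on brighter genes moved the median of all genes to -0.04, against 0.02 as reported, and that of the lysosomal hydrolases to -0.02. The transcription factor median was 0.02 without WT replicate 1, and that of the granulocyte-monocyte progenitor genes lay between -0.06 and 0.11 with 1 array left out. The late granule median was -0.27 without WT replicate 1 and -0.80 with array weights. Late granule genes called numbered 0 to 1 with 1 array left out, the 1 without WT replicate 2 being Camp.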

Other observations

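Eosinophil markers, which include the neighbour of Mpo described above, had lower levels in the knockout for 6 of 7 measured genes of 9 listed (median -0.31), with 0 called by limma and 3 at an unadjusted p under 0.05, all lower. Prg2, the eosinophil major basic protein, was at 6.68, 7.41 and 6.14 on the knockout arrays, against 7.60, 8.41 and 7.65 on the WT arrays, without overlap. The mean log2 level of the list was 5.49 to 5.86 in the knockout and 5.99 to 6.15 in WT. Its array medians, centred per gene, did not overlap, at -0.29, 0.04 and -0.33 in the knockout, against 0.18, 0.13 and 0.34 in WT.

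Among 7 measured megakaryocyte markers of 9 listed, 6 had a positive difference (median 0.19), among them Cd9, a platelet tetraspanin, at 0.56 (SE 0.14, limma adjusted p = 0.342). The array medians of this list did not overlap either, at 0.32, 0.19 and -0.01 in the knockout, against -0.13, -0.15 and -0.09 in WT. The 10 measured monocyte, macrophage and dendritic markers of 12 had a median of -0.09, the 12 T and NK cell markers -0.07, the 6 measured of 10 erythroid markers 0.00 and the 10 measured of 12 LSK and stem cell genes -0.09, with 0 called by limma in each of these lists. At an unadjusted p under 0.05 the megakaryocyte list had 3 genes, the monocyte list 0, the T and NK list 1, the erythroid list 0 and the LSK list 3.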
